A study of Homo sapiens with 5 samples.

Results

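HEK 293T, an established line from human embryonic kidney, was transformed with adenovirus DNA and later given the large T antigen of SV40. The comparison described here is between cells grown for 30 days after a 3-day exposure to 1.0 µM 5-aza-2'-deoxycytidine (5-aza-CdR), called recovery, and cells that never had the drug, called control. It used 3 of the 5 libraries of the study, 2 of control cells and 1 of recovered cells; the other 2 libraries came from cells at the end of the 3 days of drug, and their values are given beside the recovery values where they help. All groups were the same line in the same medium, with no other agent and no engineered allele named. When the control cells were collected is not stated in the labels.

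The values are FPKM (fragments per kilobase of transcript, scaled to the total of mapped fragments), 1 per gene and group, with the 2 control libraries already combined. An entry was included where the larger of its control and recovery values was 1 FPKM or more. This left 12195 of 20220 entries of the RefSeq gene table and, apart, 2131 of 10010 loci of the long noncoding RNA (lncRNA) table, in which transcripts of 1 locus with the same values were counted once. Recovery is 1 library and control is 1 combined value, so there is no replicate error of recovery and no test was computed here. Sizes are described from the FPKM, and the words rose and fell are kept for entries with q under 0.05 in the authors' deposited table, where q is a p-value adjusted for multiple testing.

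5-aza-CdR is a deoxycytidine analogue that is built into replicating DNA in place of deoxycytidine and traps the DNA methyltransferases that attach to it. Methylation of the base pair step CG is then lost as cells divide, and genes whose promoters were held silent by methylation can be transcribed. After the drug is removed, maintenance and de novo methyltransferases can restore the marks, so the 30 days of growth show which transcripts are still far from their level in untreated cells. Genes known to depend on promoter methylation include cancer-testis and other germline genes, imprinted genes, and some histone genes of the testis.

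Most entries were near their control level after 30 days. Of 11450 entries above 0 in both groups, 9048 (79.0%) lay within 2-fold of control and the median ratio of recovery to control was 0.980. At least 2-fold higher in recovery were 1395 entries (12.2% of 11450), 562 of them at least 4-fold, and at least 2-fold lower were 1007 (8.79%), 262 of them at least 4-fold. A further 542 of 12195 entries (4.44%) were listed at 0 in control and 203 (1.66%) were listed at 0 in recovery. Of 11174 entries with q under 1 in the authors' deposited table, 100 rose (0.895%) and 50 fell (0.447%). Of these 150 calls, 96 of the 100 that rose were at 0 in control and 47 of the 50 that fell were at 0 in recovery, so only 7 called entries had a value in both groups.

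**Figure D1:**
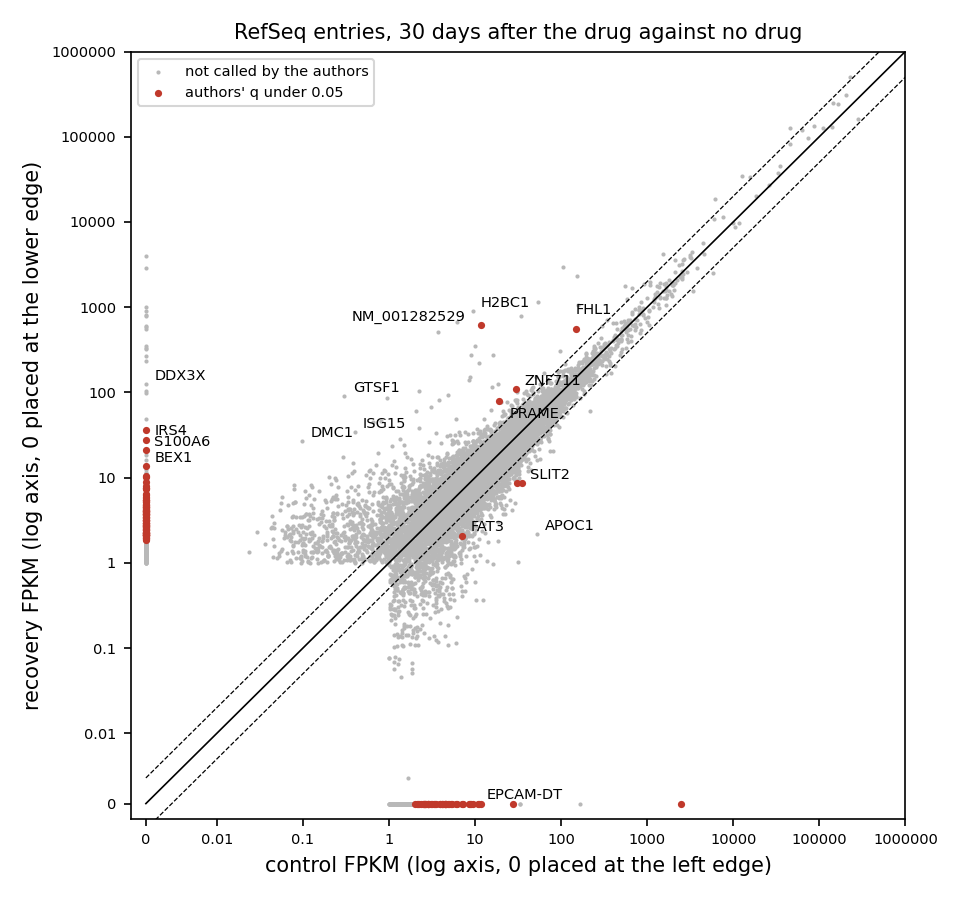
Control FPKM (horizontal) against recovery FPKM (vertical) for the 12195 RefSeq entries, on log axes with a value of 0 placed at the edge and values under 0.003 drawn at 0.003. The solid line is equality, the dashed lines are 2-fold, and red points are the entries with q under 0.05 in the authors' deposited table, 143 of 150 of which sit on the edges where 1 group is at 0.

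How far apart the values lay depended on how high they were. Among 698 entries whose larger value was 1 to 2 FPKM, 30.2% were at least 2-fold higher and 19.2% at least 2-fold lower. Among 618 entries at 100 to 1000 FPKM the shares were 4.53% and 0.809%. For the 100 entries above 1000 FPKM they were 14% and 2%.

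**Figure D2:**
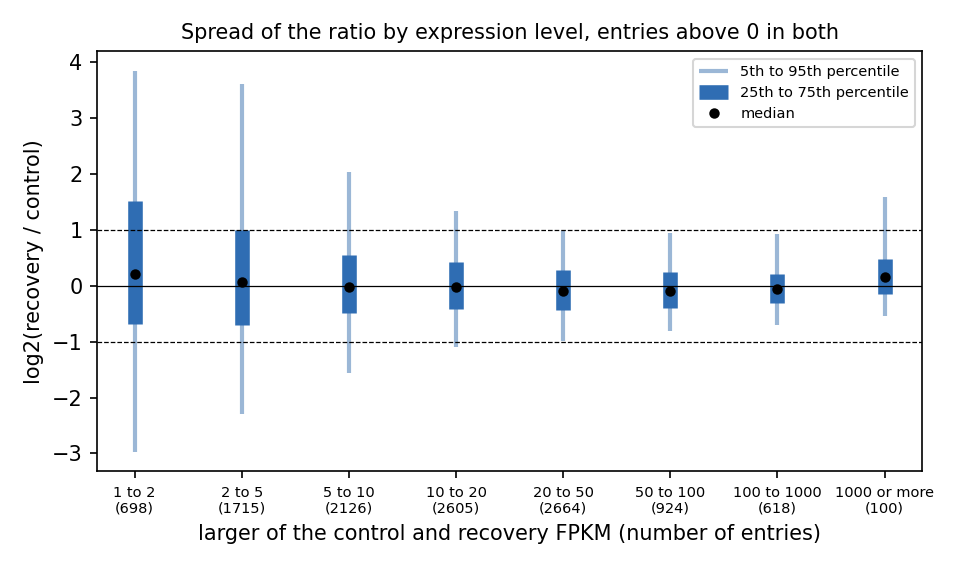
Spread of log2(recovery / control) for RefSeq entries above 0 in both groups, by the larger of the 2 FPKM values. Thin bars run from the 5th to the 95th percentile, thick bars from the 25th to the 75th and points are medians; at 1 to 2 FPKM the thin bar runs from -2.98 to 3.85 and at 100 to 1000 FPKM from -0.70 to 0.93.

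The depth can be estimated from the low values, because the FPKM of a gene with few fragments steps by what 1 fragment is worth. The commonest ratio of recovery to control was 1.53, taken as 1 fragment against 1 fragment. On that reading the recovery values rested on 0.652 fragments for every control fragment. The same reading of the lncRNA table, from the same libraries, gave 1.31, so the depth is uncertain. The fragment numbers and intervals below rest on the RefSeq reading alone. Of the 1395 higher entries, 325 fitted whole fragment numbers with 5 or fewer in control and 143 of them with 1. These are the smallest whole numbers that give the values, which any common multiple of them would give too. Recovery listed 6547 of the 20220 entries at 0 and control 7562. Genes that most cells use were among the zeros: DDX3X, an RNA helicase, was listed at 0 in control, 170 FPKM under drug and 126 FPKM in recovery, and KMT2A, a histone methyltransferase, at 0, 14.9 and 8.40 FPKM. Both had a q of 1, whereas 70 of the 72 control-at-0 entries with 5 FPKM or more in recovery had a lower q. A 0 is therefore given below only as a listed 0, and no fold is computed against it.

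The kind of cell was checked on marker genes. NEFL, a neurofilament that this line is known to express, stood at 28.9 FPKM in control and 30.6 FPKM in recovery, and CDH2 (N-cadherin) at 24.8 and 26.8 FPKM. PAX2, a kidney lineage factor, and STMN2, a neuronal gene, were listed at 0 in both groups. Markers of blood, endothelium, fibroblasts and other epithelia were mostly at or near 0: the blood genes PTPRC, HBB and CD3E and the endothelial genes CDH5 and PECAM1 were listed at 0 in both. The highest was KRT19, a simple epithelial keratin, at 29.9 FPKM in control and 54.1 FPKM in recovery. Of the fibroblast genes, COL3A1 had 4.10 and 7.78 FPKM and LUM 2.42 and 1.48 FPKM, while DCN was listed at 0 in both. Every other one of these markers was at 1.71 FPKM or less in both groups. In bulk libraries a transcript in fewer cells and less of it per cell cannot be told apart.

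Germline genes were mostly absent or low in control and present in recovery. Of 70 entries on the list of cancer-testis and germline genes, which are transcribed in the testis or germ cells and silent in most other tissues, 37 reached 1 FPKM. Of the 20 above 0 in both groups, 19 were at least 2-fold higher in recovery and 0 were lower; LIN28B, an RNA-binding regulator of let-7, was the one within 2-fold (21.2 FPKM in control, 16.7 FPKM in recovery). The other 17 were listed at 0 in control and stood at 1.03 to 7.60 FPKM in recovery. With a control under 1 FPKM, 33 of the 37 reached the limit of 1 FPKM through recovery alone and so had to be higher, and no share over all entries is set beside them. Of the 4 with 1 FPKM or more in control, 3 were at least 2-fold higher. The same holds in part for every list below, since an entry low in control counts only where it is higher in recovery. Over the 37 entries the median was 0.0754 FPKM in control, 12.1 FPKM at the end of the 3 days of drug and 4.12 FPKM after recovery. Recovery was below the drug value in 27 entries and above it in 10.

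GTSF1, a gonadal zinc finger protein that works with Piwi proteins, had the largest ratio of all entries with 10 FPKM or more. It had 0.303 FPKM in control, 76.3 FPKM under drug and 90.1 FPKM in recovery (297-fold). The smallest fragment numbers behind these values are 1, 333 and 194, which puts the ratio of recovery to control between 52.8 and 11807 (95% exact binomial interval, counting error only). The single control fragment makes the fold loose, while on this reading the recovery level itself rests on 194 fragments or more. DMC1, the recombinase of meiotic crossing over, is not on the list but had the next largest ratio, with 0.0984 FPKM in control, 1.71 FPKM under drug and 26.9 FPKM in recovery. Most of its difference from control was thus absent at the end of the drug. CTAG2, a cancer-testis antigen on the X chromosome, had 0.658, 51.1 and 44.6 FPKM, and MAGEB2, a melanoma antigen gene, 0.394, 24.8 and 11.9 FPKM.

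Of the germline entries, 5 rose and 0 fell in the authors' deposited table. PRAME, a repressor of retinoic acid signalling, was the one already present in control, at 19.2 FPKM, and reached 59.3 FPKM under drug and 78.8 FPKM in recovery (4.09-fold, q = 0.0147). The others went from a listed 0: CT45A5 to 7.60 FPKM, MAGEA3 to 5.96 FPKM, CT55 to 3.90 FPKM and TDRD1, a tudor protein of the piRNA pathway, to 2.50 FPKM. Of the 37 entries, 30 lie on the X chromosome. Many belong to families of near-identical copies (MAGEA, GAGE, PAGE, SSX), and how fragments were shared among copies is not given, so single members are uncertain and members are not independent genes.

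**Figure D3:**
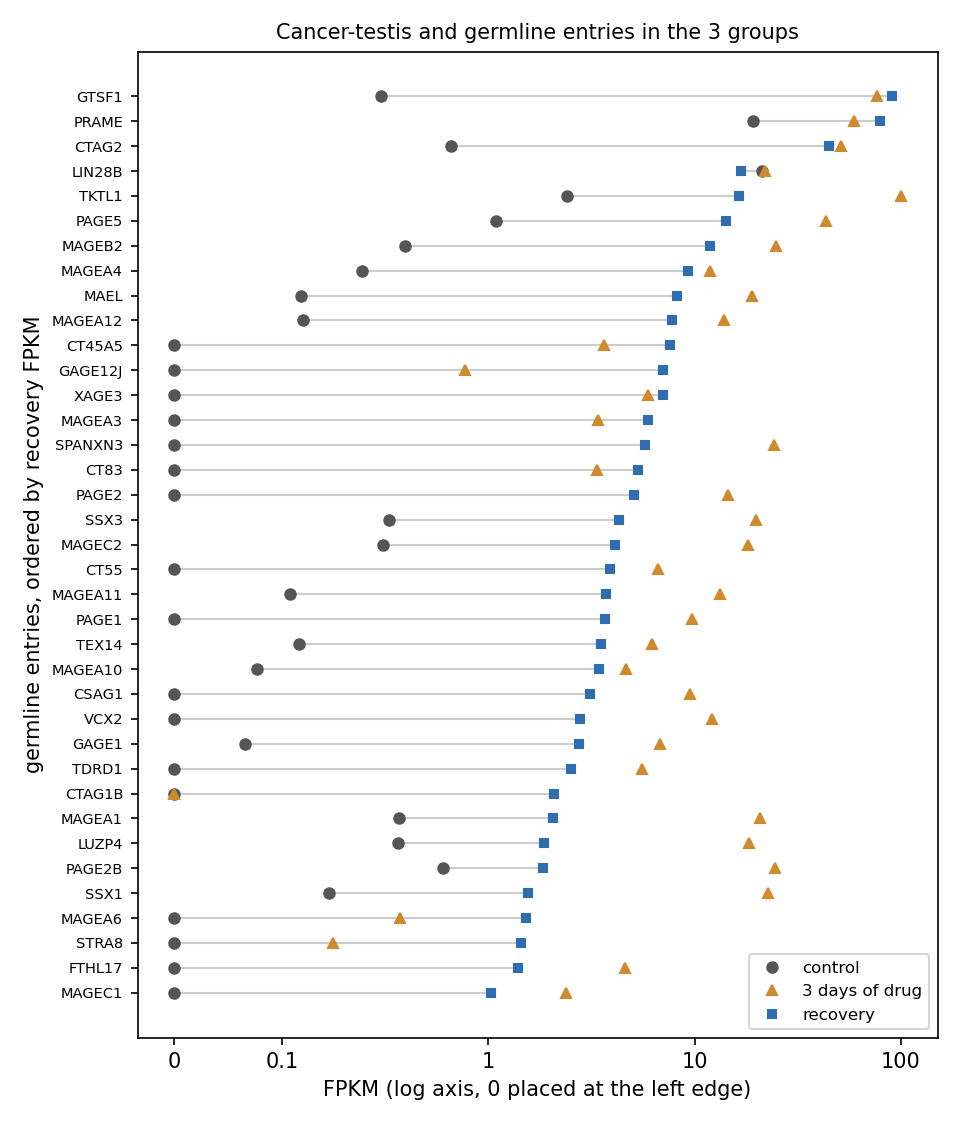
FPKM of the 37 germline entries in control (circles), after 3 days of drug (triangles) and in recovery (squares), on a log axis with 0 placed at the left edge. Lines join control to recovery; 36 of the 37 entries sit to the right of control, the median recovery level is 4.12 FPKM, and GTSF1, PRAME and CTAG2 keep the highest levels.

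The promoters of 4 genes that the results turn on are shown because CG steps are where the methylation that the drug removes is found. They are the 250 bases before the start site from RefSeq on GRCh38.p14, 5′ to 3′ on the gene's strand, with every CG in capitals.
GTSF1 (chr12:54473603-54473852, minus strand): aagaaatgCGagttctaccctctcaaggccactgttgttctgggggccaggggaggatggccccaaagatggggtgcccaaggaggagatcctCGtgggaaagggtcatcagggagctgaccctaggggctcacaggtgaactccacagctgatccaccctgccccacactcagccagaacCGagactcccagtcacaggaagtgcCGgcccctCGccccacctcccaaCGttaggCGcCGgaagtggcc
DMC1 (chr22:38570184-38570433, minus strand): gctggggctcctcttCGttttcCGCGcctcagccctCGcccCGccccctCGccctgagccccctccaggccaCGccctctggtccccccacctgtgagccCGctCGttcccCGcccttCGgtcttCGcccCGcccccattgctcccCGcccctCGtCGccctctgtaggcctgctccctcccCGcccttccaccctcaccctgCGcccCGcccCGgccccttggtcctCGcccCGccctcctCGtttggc
IRS4 (chrX:108736378-108736627, minus strand, 1 of 2 windows of this gene): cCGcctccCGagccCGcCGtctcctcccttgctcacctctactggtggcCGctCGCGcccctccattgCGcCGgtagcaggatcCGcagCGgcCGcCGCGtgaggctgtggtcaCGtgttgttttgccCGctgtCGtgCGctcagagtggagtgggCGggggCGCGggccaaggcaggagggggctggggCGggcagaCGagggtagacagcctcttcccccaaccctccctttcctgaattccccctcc
SLIT2 (chr4:20251655-20251904, plus strand): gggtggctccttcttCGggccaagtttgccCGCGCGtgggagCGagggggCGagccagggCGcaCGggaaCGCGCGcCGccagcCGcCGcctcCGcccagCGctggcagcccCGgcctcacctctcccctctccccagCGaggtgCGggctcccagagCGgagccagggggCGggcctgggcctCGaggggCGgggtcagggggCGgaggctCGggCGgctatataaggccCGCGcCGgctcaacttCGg
The GTSF1 window holds 8 CG, the DMC1 window 23, the IRS4 window 23 and the SLIT2 window 30. At least as many CG are found in 56.3%, 25.8%, 25.8% and 12.4% of all 35116 windows, whose median is 11. SLIT2, with the most CG of the 4, fell, and the other 3 were far higher in recovery or listed at 0 in control. These 4 were picked for their results, so no link between CG number and direction is read from them. Among protein-coding entries above 0 in both groups the median was 19 CG for those at least 2-fold higher, 19 for those at least 2-fold lower and 22 for those within 2-fold, with windows for 81.9%, 80.1% and 82.8% of them. For the entries listed at 0 in 1 group fewer than 80% had a window, so that comparison is void. Methylation itself was not measured in these tables.

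Replication-dependent histone genes lie in clusters, mainly on chromosome 6, and their transcripts have no poly(A) tail, so they are seen here because the libraries were made by removing ribosomal RNA. Of 55 histone entries, 21 (38.2%) were at least 2-fold higher in recovery and 0 were at least 2-fold lower, beside 12.2% and 8.79% of all entries. Their median difference on log2(FPKM + 1) was 0.54 in recovery, beside -0.37 at the end of the 3 days of drug. Their levels set them in 2 kinds, split at a mean of 250 FPKM over the 3 groups, a limit chosen after the data were seen. That mean includes the drug and recovery values, so the split is not independent of the differences it describes. Of the 55 histone entries, 8 fitted 1 to 3 control fragments at the smallest numbers. Of the 24 below it, 17 were at least 2-fold higher and all 24 were above control, with a median ratio of 10.6 in recovery and 9.98 under drug. Over all 11208 entries with a mean under 250 FPKM the median ratio was 0.980, and 12.2% were at least 2-fold higher. Those entries were not matched to the histones in level. Of the 31 above it, 4 were at least 2-fold higher and 26 were above control, with a median ratio of 1.30 in recovery and 0.603 under drug. Over all 242 entries of that level the median ratio was 1.02, and 51.7% were above control.

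H1-1, a linker histone, had 0.957 FPKM in control, 119 FPKM under drug and 87.1 FPKM in recovery. H3C12 (histone H3) had 10.0, 367 and 346 FPKM and H4C6 (histone H4) 2.21, 141 and 105 FPKM. H2BC3 (histone H2B) had 0.805, 136 and 45.6 FPKM from a smallest control number of 1 fragment. The adjacent testis-specific pair H2AC1 and H2BC1, which package chromatin in spermatogenesis, is among the 12 highest ratios of entries with 10 FPKM or more. H2AC1 had 3.71 FPKM in control, 274 FPKM under drug and 507 FPKM in recovery (136-fold, smallest fragment numbers 2, 195 and 178, interval 37.2 to 1135). H2BC1 had 9.41, 621 and 898 FPKM (95.4-fold, smallest fragment numbers 4, 349 and 249). Recovery was thus above the drug value for the testis pair and below it for H1-1, H3C12, H4C6 and H2BC3. None of these 6 had q under 0.05 (0.445 to 0.939 in the authors' deposited table). Histone genes are near copies of one another, so the split of fragments among them is uncertain.

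The rest of these 12 entries were of varied kinds. TIGD1, a gene derived from a DNA transposon, had 6.10 FPKM in control, 239 FPKM under drug and 671 FPKM in recovery, although fragments from related repeats could be assigned to it. The noncoding LINC00624 had 0.292, 13.5 and 17.4 FPKM, and ZBED5-AS1 0.203, 13.4 and 10.3 FPKM from a single control fragment at the smallest numbers. Outside these 12, which were chosen among entries with a symbol, NM_001282529 on chromosome 9 had 11.7 FPKM in control, 13.9 FPKM under drug and 617 FPKM in recovery, and rose in the authors' deposited table (q = 0.0147).

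Beside PRAME and NM_001282529, 2 entries present in control rose in the authors' deposited table, both on the X chromosome. FHL1, a LIM-domain protein of muscle and other cells, went from 148 FPKM in control to 329 FPKM under drug and 560 FPKM in recovery (3.77-fold, q = 0.0147). ZNF711, a zinc finger protein that recruits a histone demethylase, went from 30.3 to 129 and 110 FPKM (3.62-fold, q = 0.0147). These 2 do not rest on a low control value.

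The 542 entries listed at 0 in control had a median of 1.96 FPKM in recovery, and 72 reached 5 FPKM. At the end of the 3 days of drug 275 of them had 1 FPKM or more and 93 were also at 0. Of the 96 that rose in the authors' deposited table, levels in recovery ran from 1.86 to 36.2 FPKM. The highest was DPM3, a subunit of the enzyme that makes dolichol-phosphate mannose (0, 36.5 and 36.2 FPKM). S100A6, a small calcium-binding protein, had 0, 16.6 and 21.2 FPKM, BEX1, an X-linked gene of neural and endocrine cells, 0, 11.7 and 13.7 FPKM, and CDC26, a subunit of the anaphase-promoting complex, 0, 9.63 and 10.2 FPKM. For these 4 the recovery and the drug level were close to one another.

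IRS4 differed from them. It encodes insulin receptor substrate 4, an adaptor that was first described in HEK 293 cells and is known to be abundant there. It lies on the X chromosome (107975727 to 107979607, hg19), and was listed at 0 in control, 2.13 FPKM under drug and 28.0 FPKM in recovery (q = 0.0147, authors' deposited table). Nearly all of the difference was therefore absent at the end of the drug. The entry spans 0.234 of the gene's length in the RefSeq table on GRCh38.p14. The lncRNA table holds a locus 7389 bases from it, TCONS_00017361 (X chromosome, 107963202 to 107968338), with 2.67 FPKM in control, 24.1 FPKM under drug and 458 FPKM in recovery. Its ratio was 172 and its q was 0.487. Of 32 entries of insulin receptor signalling, 3 were at least 2-fold higher, 2 at least 2-fold lower and 2 listed at 0 in control, shares near those of all entries; IRS4 was the one that rose.

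Other highly placed entries from a listed 0 are less certain. HOXB-AS3, an antisense RNA of the HOXB cluster, had 18.6 FPKM in recovery but a q of 0.749, and C1orf54 (12.2 FPKM, q = 0.0863) and the pseudogene NBEAP1 (11.4 FPKM, q = 0.0863) did not pass either. The entries named for MIRLET7D, MIR762, KANSL1-AS1 and EPC1-AS1 span more than 2 lengths of the gene they are named for, so their values (596, 49.2, 15.9 and 11.2 FPKM) could belong to other genes in the span.

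The 12 lowest ratios of entries with 10 FPKM or more were spread over many kinds of gene, and none of the 12 had q under 0.05. APOC1, an apolipoprotein, had 52.0 FPKM in control, 6.46 FPKM under drug and 2.18 FPKM in recovery (23.8-fold lower). C16orf95 had 12.3, 2.00 and 0.368 FPKM (33.5-fold lower), PPP1R1C, an inhibitor of protein phosphatase, 10.1, 3.51 and 0.601 FPKM (16.7-fold lower), and AQP11, an aquaporin of the kidney proximal tubule, 10.4, 2.22 and 1.60 FPKM (6.52-fold lower). For these 4 the drug value already lay below control. Of the 12 lowest ratios, 2 belong to the pseudogenes RPS18P9 (28.0-fold lower) and PDCL3P4 (10.2-fold lower), and ARHGAP11B (9.78-fold lower) is a partial copy of another gene, so fragments could be shared with their parents. The noncoding PELP1-DT, LINC02593, LINC01556 and LOC731157 and the gene C6orf52 made up the rest, at 6.52-fold to 30.7-fold lower, and the entry of PELP1-DT spans 26.3 lengths of its gene.

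Among entries with a value in both groups 3 fell in the authors' deposited table. SLIT2, a secreted guidance cue for axons and migrating cells, went from 34.9 FPKM in control to 15.6 FPKM under drug and 8.57 FPKM in recovery (4.08-fold lower, q = 0.0147). SGMS2, a sphingomyelin synthase of the plasma membrane, went from 30.6 to 10.3 and 8.63 FPKM (3.55-fold lower, q = 0.0147), and FAT3, a giant cadherin, from 7.11 to 2.42 and 2.09 FPKM (3.40-fold lower, q = 0.0329). SLIT2 and SGMS2 both lie on chromosome 4.

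Of the 203 entries listed at 0 in recovery, 31 had 5 FPKM or more in control. EPCAM-DT, a noncoding RNA next to the epithelial adhesion gene EPCAM, had 11 FPKM in control, 0.582 FPKM under drug and 0 in recovery (q = 0.0147, authors' deposited table). LINC01508 (10.9 to 0 FPKM), SMIM1, a membrane protein that carries a blood group antigen (11.8 to 0 FPKM), and DHDH, a dihydrodiol dehydrogenase (9.47 to 0 FPKM), also fell. ABCC6P2, a pseudogene of ABCC6, fell from 27.5 FPKM to 0, though near copies could have taken its fragments. FGF22, a fibroblast growth factor, was listed at 11.3 FPKM in control and 0 in recovery with a q of 0.123. The entries named for MIR5000 and ECSCR span more than 2 lengths of their gene, as does that for SMIM22.

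Values also differed by chromosome. On the X chromosome 108 of 418 entries (25.8%) were at least 2-fold higher in recovery, beside 5.20% to 16.8% on the autosomes, and the median log2 ratio was 0.31 in recovery and 0.30 under drug. Without the germline list the share on the X chromosome was 93 of 403 (23.1%). Among entries of 10 FPKM or more it was 49 of 249 (19.7%), beside 0.826% to 11.7%. In windows of 20 Mb the distal end of the X chromosome, 140 to 160 Mb, had the highest median of 156 windows with at least 10 entries of 5 FPKM or more: 0.72 in recovery and 0.80 under drug, with 88.5% of 52 entries above control. Of the 100 entries that rose in the authors' deposited table, 14 were on the X chromosome, as were 0 of the 50 that fell. Of all 12195 entries 451 (3.70%) were there, so 0 of 50 is near the share of all entries.

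Chromosome 4 went the other way. There 79 of 432 entries (18.3%) were at least 2-fold lower, beside 5.57% to 12.6% elsewhere, and 23 (5.32%) at least 2-fold higher. The median log2 ratio was -0.35 in recovery and -0.16 under drug, and all 10 windows had a median below 0, down to -0.64 at 100 to 120 Mb, where 8.70% of 46 entries were above control. Of the 50 entries that fell in the authors' deposited table, 7 were on chromosome 4, as were 2 of the 100 that rose. Of all 12195 entries 457 were on it. The lowest window of all was the first 20 Mb of chromosome 10, at -0.68 in recovery and -0.57 under drug. DNA copy number was not measured, and its part in these differences was not tested.

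**Figure D4:**
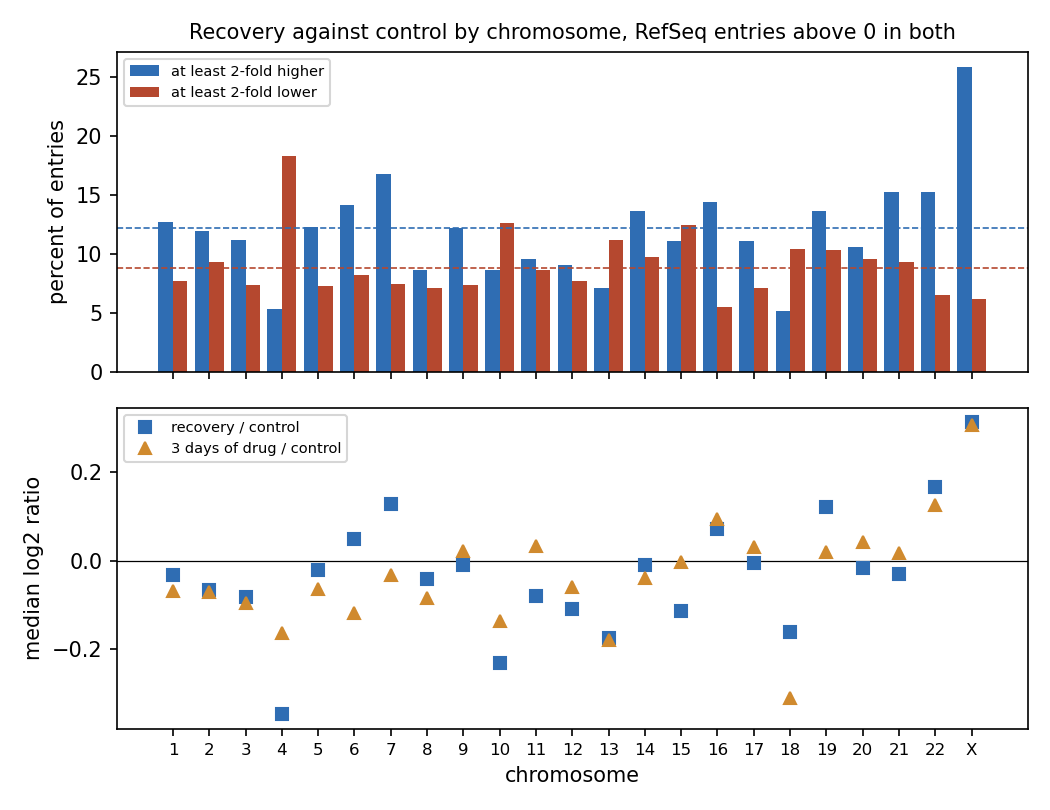
Upper panel: percent of RefSeq entries above 0 in both groups that were at least 2-fold higher (blue) or lower (red) in recovery, by chromosome, with dashed lines at the shares over all entries (12.2% and 8.79%). Lower panel: median log2 ratio to control in recovery (squares) and after 3 days of drug (triangles); the X chromosome is highest at 0.31 and chromosome 4 lowest at -0.35.

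Interferon response genes, which many cells switch on when they sense viral or other double-stranded RNA, were split. Of 41 entries, 15 of the 39 above 0 in both groups were at least 2-fold higher (38.5%, beside 12.2% of all entries). At least 2-fold lower were 4 (10.3%, beside 8.79%), and 2 were listed at 0 in control. With a control of 5 FPKM or more, 2 of 21 were higher and 3 lower, beside 3.78% and 6.63% of all 8313 entries. ISG15, a ubiquitin-like modifier, had 0.398 FPKM in control, 25.9 FPKM under drug and 34.2 FPKM in recovery (85.8-fold, smallest fragment numbers 1, 86 and 56, interval 14.8 to 3451). IFI27 had 0.607, 15.6 and 12.2 FPKM. IFIT3, which binds viral RNA together with its relatives, had 0.0791, 2.27 and 7.45 FPKM, and BST2 (tetherin), which holds budding viruses at the cell surface, 15.2, 17.8 and 61.7 FPKM. For ISG15, IFIT3 and BST2 the recovery value was thus the highest of the 3 groups. None on the list had q under 0.05. The authors' deposited table did call IFI16, a DNA sensor that is not on the list and was picked out after its values were seen. It was listed at 0 in control, 0.111 FPKM under drug and 4.48 FPKM in recovery.

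Imprinted genes, of which 1 parental copy is silenced by methylation, gave 8 of 22 entries at least 2-fold higher (36.4%, beside 12.2% of all entries). At least 2-fold lower were 2 (9.09%, near the 8.79% of all entries), and 4 of 26 were listed at 0 in control. With a control of 5 FPKM or more, 1 of 12 was higher and 1 lower. NLRP2, a maternal-effect gene of the oocyte, had 0.0559, 10.3 and 5.01 FPKM, and NDN (necdin), a growth regulator expressed from the paternal copy, 0.218, 4.63 and 5.69 FPKM from a smallest control number of 1 fragment. MEST, a hydrolase, was listed at 0 in control and had 10.3 FPKM under drug and 3.91 FPKM in recovery. SNURF, part of the Prader-Willi locus, was listed at 0, 3.17 and 3.85 FPKM. The entries of MEST and SNURF span 12.1 and 6.53 lengths of their genes. None of the entries on the list had q under 0.05. SNORD116-16, a small nucleolar RNA of the same locus that is not on the list and was picked out after its values were seen, fell from 2494 FPKM in control to a listed 0 in both other groups (q = 0.0147, authors' deposited table). Few fragments can give a large FPKM in so short an RNA, and the fragment number of SNORD116-16 could not be read. In genes derived from retroelements 7 of 17 entries (41.2%) were at least 2-fold higher and 0 lower. With a control of 5 FPKM or more, 2 of 10 were higher and 0 lower. ZCCHC12 had 6.58, 60.6 and 34.0 FPKM, and PEG10, an imprinted gene with a retroviral frameshift, 1.97, 28.0 and 11.9 FPKM. For NLRP2, MEST, ZCCHC12 and PEG10 recovery lay between control and drug.

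Several small families held single genes with large differences, while their counts differed from the 12.2% and 8.79% of all entries by a few entries only. Of the list of BEX and TCEAL genes of the X chromosome, which also holds ARMCX1, 3 of 14 were at least 2-fold higher and 0 lower. On that list 2 of 16 were listed at 0 in control. TCEAL7 had 36.7, 50.7 and 97.3 FPKM, and ARMCX1 1.05, 7.11 and 8.52 FPKM. LIM-domain genes, many of which bind actin, gave 6 of 24 higher and 1 lower. FHL1 and TGFB1I1 (a listed 0 in control, 4.07 FPKM in recovery) rose, and CRIP2 had 6.37, 41.6 and 25.8 FPKM. Of actin-binding genes 6 of 28 were at least 2-fold higher and 0 lower: TPM2, a tropomyosin, had 4.90, 42.5 and 93.5 FPKM, FLNA, the X-linked filamin, 97.9, 412 and 309 FPKM, and SCIN (scinderin) 0.0781, 9.49 and 8.20 FPKM. Among 30 targets of p53 and DNA damage genes 6 were higher and 0 lower, with TP53I3 at 5.49, 13.4 and 26.7 FPKM and CHEK2, a checkpoint kinase, at 15.4 FPKM in control and 36.1 FPKM in recovery. None of these 30 had q under 0.05.

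Short RNAs made by RNA polymerase III or of similar length gave large FPKM from few fragments. Of 9 SNAR, vault, Y and 7SK entries above 0 in both groups, 7 were at least 2-fold higher (77.8%, beside 12.2% of all entries). SNAR-C3 had 104 FPKM in control, 2651 FPKM under drug and 2924 FPKM in recovery, yet its smallest fragment numbers are 3, 101 and 55, and SNAR copies are nearly identical.

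Cadherins and protocadherins, which join cells to one another, had the largest share of lower entries among lists of 12 or more. Of 18 above 0 in both groups, 8 were at least 2-fold lower and 3 at least 2-fold higher, beside 8.79% and 12.2% of all entries, and the median log2 difference was -0.62 in recovery and -0.29 under drug. FAT3 was the one that fell in the authors' deposited table. CDH13, a cadherin anchored by lipid, stood the other way with 0.154, 3.71 and 6.95 FPKM, as did PCDHB5 with 0.0680, 4.74 and 4.80 FPKM from a smallest control number of 1 fragment, and CDH7 rose from a listed 0 to 1.91 FPKM. In axon guidance genes, 9 of 30 were at least 2-fold higher and 5 lower. SLIT2 fell, while EFNA1, an ephrin ligand, had 1.85, 5.64 and 8.54 FPKM and EPHB3, an ephrin receptor, 0.553, 1.29 and 3.81 FPKM. NTN3, a netrin, had 0.104, 0.628 and 4.93 FPKM from a smallest control number of 1 fragment.

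Signalling and lineage genes lay on both sides of control, in lists that also differ from those shares by a few entries. Of 27 growth factor and immediate early genes above 0 in both groups, 8 were at least 2-fold higher and 6 lower. CCN2, a matrix-associated growth factor, had 5.36, 30.9 and 27.4 FPKM and NR4A1, an immediate early nuclear receptor, 0.239, 9.10 and 5.97 FPKM. DUSP6, the phosphatase that switches off ERK, had 4.84, 0.802 and 0.108 FPKM (44.6-fold lower, q = 0.939). Of 25 apoptosis genes 4 of the 24 above 0 in both were at least 2-fold lower and 1 higher: BIK, a BH3-only killer protein, had 5.17, 9.13 and 0.377 FPKM, HRK, another, 3.99, 0.392 and 0.437 FPKM, and BCL2, which they oppose, 0.441, 1.53 and 6.49 FPKM.

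Among kidney development genes 4 of 16 were at least 2-fold higher and 2 lower (25% and 12.5%, beside 12.2% and 8.79% of all entries). CITED1, a coactivator of nephron progenitors, had 8.19, 63.6 and 32.4 FPKM and SIX2, which keeps those progenitors undifferentiated, 0.853, 9.83 and 5.23 FPKM. OSR1, an early nephric factor, had 5.47, 1.24 and 0.503 FPKM, and MEOX1 fell from 3.05 FPKM to a listed 0. In the steroidogenic list NR5A1, the master regulator of steroid-making cells, rose from a listed 0 to 5.28 FPKM under drug and 4.02 FPKM in recovery, and CYP17A1, one of the enzymes it is known to regulate, fell from 2.66 FPKM to a listed 0 in both (q = 0.0147 and 0.0239, authors' deposited table). DPPA4, a gene of the early embryo, rose from a listed 0 to 2.60 FPKM.

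Genes for basic cell functions lay near control. None of 34 DNA replication entries and none of 65 subunits of oxidative phosphorylation was at least 2-fold away in either direction. Of 71 cytosolic ribosomal proteins 2 were higher and 3 lower, and of 24 DNA methylation genes 2 were higher and 0 lower. GADD45G, a stress gene tied to demethylation, had 0.214, 5.19 and 5.25 FPKM from a smallest control number of 1 fragment, and MBD6, whose product has a methyl-CpG-binding type domain, 0.938 FPKM in control and 2.23 FPKM in recovery, in an entry that spans 2.26 lengths of its gene. DNMT3A, a de novo methyltransferase, lay just within 2-fold at 5.16, 9.18 and 10.3 FPKM. Most mitosis genes lay slightly below control, with CDC26, which rose from a listed 0, the exception of largest size. Of 37 above 0 in both groups, 30 were below control in recovery and 21 under drug, with a median log2 difference of -0.41 in recovery, while 60.6% of all 6206 entries with a control of 10 FPKM or more were below control. CENPE, a kinetochore motor, had 29.2, 28.7 and 13.7 FPKM and TTK, a spindle checkpoint kinase, 57.2, 52.4 and 28.1 FPKM. NUSAP1, a spindle protein, had 150, 124 and 87.8 FPKM. The stress response of amino acid shortage had 5 of 33 entries at least 2-fold higher (15.2%, near the 12.2% of all entries) and 0 lower in recovery, with a median log2 difference of -0.07 in recovery and -1.20 under drug. NUPR1, a stress-induced chromatin protein, had 6.76, 0.640 and 16.2 FPKM, and SESN2, a sensor of leucine, 19.5, 16.9 and 44.7 FPKM.

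**Figure D5:**
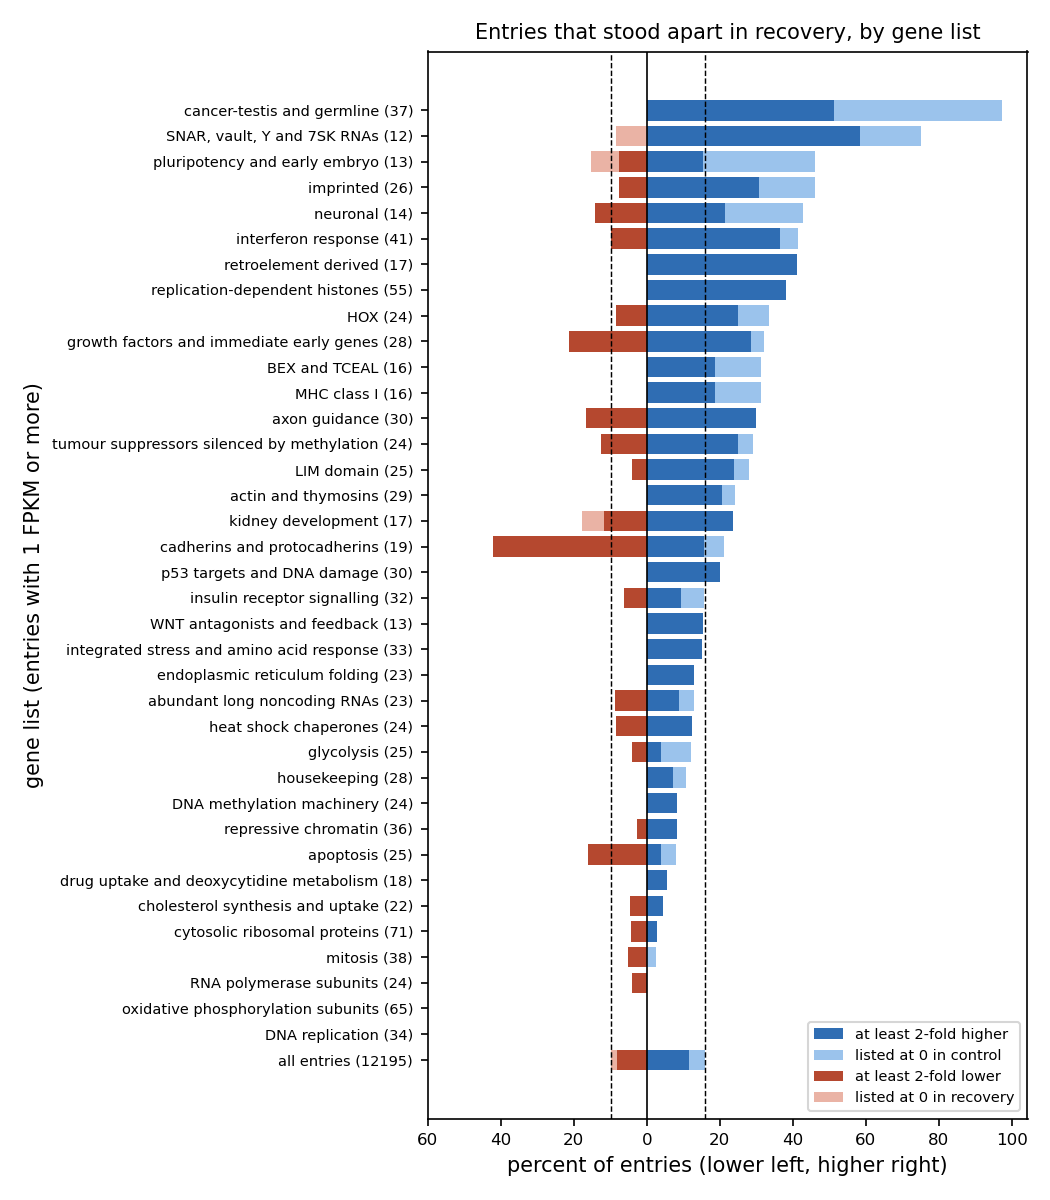
Percent of each gene list's entries (1 FPKM or more, number in brackets) that were at least 2-fold higher in recovery or listed at 0 in control (right), or at least 2-fold lower or listed at 0 in recovery (left). Lists with 12 or more entries are shown, dashed lines mark the shares over all 12195 entries, and the longest bars are those of the germline list to the right, most of which passed the limit through recovery alone, and of the cadherins to the left.

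The lncRNA loci scattered more than the RefSeq entries. Of 2131 loci, 927 were above 0 in both groups, and only 370 of them (39.9%) lay within 2-fold. At least 2-fold higher were 299 (32.3%) and lower 258 (27.8%), while 815 of 2131 (38.2%) were listed at 0 in control and 389 (18.3%) in recovery. Of 1083 loci with q under 1 in the authors' deposited table, 86 rose (7.94%) and 75 fell (6.93%). A locus was given the lowest q of its transcripts and counted as called where any of them was called. The calls came mostly from zeros: 82 of the 86 were at 0 in control and all 75 at 0 in recovery. The 161 called loci stand for 675 transcripts. The table was scaled apart from the RefSeq table, so levels cannot be set against each other.

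Some of the named loci could be read beside a RefSeq entry at the same place, and others overlapped none. TCONS_00028768 on chromosome 21 was listed at 0 in control, 661 FPKM under drug and 1447 FPKM in recovery (q = 0.00397), and LINC00649, which it overlaps, rose in the RefSeq table from a listed 0 to 2.66 and 3.12 FPKM. TCONS_l2_00014562 on chromosome 2, which overlaps EPCAM-DT, fell from 1141 FPKM in control to 67.0 FPKM under drug and 0 in recovery (q = 0.00397). TCONS_l2_00012291 on chromosome 19 had 5.72, 207 and 331 FPKM, and NM_001242812, which it overlaps, 0.227, 2.14 and 3.82 FPKM. TCONS_00011730 on chromosome 6, with no RefSeq entry overlapping it, rose from a listed 0 to 489 FPKM under drug and 1036 FPKM in recovery (q = 0.00397). TCONS_l2_00030370 on the X chromosome, also with no RefSeq entry overlapping it, had 1.96, 81.1 and 116 FPKM. For these 5 loci the drug value lay on the same side of control as the recovery value.

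In other loci the recovery value stood far above the drug value. TCONS_00001027 on chromosome 1 had 18 FPKM in control, 22.6 FPKM under drug and 1067 FPKM in recovery, but CCDC18-AS1, the RefSeq entry at that place, had 3.33, 3.03 and 4.15 FPKM. TCONS_l2_00007050 on chromosome 13 rose from a listed 0 to 1022 FPKM, with 43.7 FPKM under drug. The loci with the most extreme ratios rest on values close to 0 and are not read as folds: TCONS_l2_00012910 had 30.8 FPKM in recovery and 0.000366 FPKM in control, and TCONS_00003974 had 52.2 FPKM in control and 0.00015 FPKM in recovery. At the other end, TCONS_00017137 on the X chromosome had 5095 FPKM in control and a listed 0 in both other groups. Some other loci differed from the entry they overlap. TCONS_00014552 on chromosome 8 had 31.2 FPKM in control and 0.0221 FPKM in recovery, beside 4.60 and 4.81 FPKM for TNFRSF10A-DT. TCONS_00012988 on chromosome 7 had 301 and 2.46 FPKM, beside a listed 0 in both groups for LINC01176. Of the 2131 loci, 774 overlap a RefSeq entry, so fragments of the gene could be counted in the locus.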

How the data were processed

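RNA of HEK 293T cells was depleted of ribosomal RNA and made into directional libraries, per the labels' protocols: 2 of control cells, 2 of treated cells and 1 of recovered cells. The authors deposited 1 FPKM per group and entry, and q-values with a yes or no call for each pair of groups; the submitters' processing notes list Cufflinks and Cuffdiff without versions and the builds hg19 and mm9 without roles, and coordinates were read as hg19. Per the labels, nothing ties a library to a culture, and no value per library was used. All 20220 RefSeq entries (1 of 20221 rows, with shifted cells, was left out) and 21625 lncRNA transcripts (2 of 21627 left out) were read with Python 3.11.15, pandas 2.3.3, numpy 2.4.6 and scipy 1.17.1 and drawn with matplotlib 3.10.9.

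Ratios are recovery over control for entries with a larger value of 1 FPKM or more; entries at 0 in a group were counted apart. Medians of gene lists are of log2(FPKM + 1) differences, which understate the change of low genes. Whole fragment numbers were searched up to 5 in control with a tolerance of 0.02, and 95% exact binomial intervals given for 1 to 3 control fragments; the search was tested on simulated data. In the lncRNA table it gave 1.31 recovery fragments per control fragment, against 0.652 in the RefSeq table of the same libraries, so no fragment numbers are given for loci. Those of RefSeq entries are uncertain for the same reason. Named RefSeq entries, all with a symbol, are the 12 first by ratio in each direction among those with 10 FPKM or more, the 12 highest of those at 0 in control or in recovery (all with a span of 300 bases or more), the 6 first loci of each lncRNA class, up to 4 members of each list by log2 difference, and entries called by the authors, which need no symbol. The comparison, the lists and the other settings were chosen with earlier results of these data known. Promoter windows came from RefSeq on GRCh38.p14, matched by symbol.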

Additional observations from a re-analysis of the deposited data

How the results depend on the processing

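No paired analysis was possible because each group has 1 deposited value and recovery is 1 library, and leaving out a replicate could not be run for the same reason. Counts moved with the limits by their construction. For RefSeq entries at least 2-fold higher (1395) the count was 2340 at 1.5-fold, 562 at 4-fold, 757 with a larger value of 5 FPKM or more and 314 with a control of 5 FPKM or more, a limit chosen after seeing the data. For those lower (1007) it was 2161, 262, 551 and 551. Set against the limit of 5 FPKM on the larger value, the same limit on control can remove higher entries only. The balance of 314 and 551 therefore follows from its construction. Entries at 0 in control (542) numbered 897 from 0.5 FPKM, 72 from 5 FPKM and 258 with q under 1, and those at 0 in recovery (203) 31 from 5 FPKM and 101 with q under 1. Of lncRNA loci, the higher (299) numbered 186 at 4-fold, 192 with q under 1 and 1259 when every transcript was counted; the lower (258) numbered 117 at 4-fold and 1108 as transcripts; those at 0 in control (815) 292 with q under 1 and 2112 as transcripts; and those at 0 in recovery (389) 121 and 920. The other 30 counts stayed within 1.5 times. The median log2 difference of the S100 list was 0.64 and -0.20 over members above 0 in both groups only, because the entries at 0 in control are left out. Of the other medians and ratios 160 were counted as unchanged, where 0.5 log2 was taken as the spread of a list median. That limit is wide: metallothioneins went from 0.52 to 0.08 and imprinted genes from 0.41 to 0.17 over members above 0 in both. Epithelium markers went from 0.02 to -0.30 with a pseudocount of 0.1 FPKM. Ratios of single genes were only rescaled by 1 factor, so their result was fixed in advance. A further 3 medians moved. That of SNAR and related RNAs went from 2.10 to 1.46 over members above 0 in both. With a pseudocount of 0.1 FPKM germline genes went from 2.04 to 4.44 and blood markers, 1 entry, from -1.43 to -4.17. Depth limits the low entries: 143 of the 1395 higher entries fit 1 control fragment.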
